A study of Mus musculus with 6 samples.

Results

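Lysosomal enzymes and membrane proteins were followed in double negative 3 (DN3) thymocytes of mice with and without the transcription factor gene Tcf7. The 45 genes were chosen by function, with earlier KO against WT fold changes and calls from these libraries known and with no threshold on a value. Counts over the list are therefore a description; all 45 were found by symbol among the 26332 genes of the count table. The KO group held 2 libraries from the thymus of C57BL/6 mice with a Tcf7 knock-out, KO 1 male and KO 2 female. The WT group held 4 libraries from wild type C57BL/6 mice, WT 1, 2 and 3 female and WT 4 male. The labels give no ages and do not say whether thymi were pooled or replicates came from separate animals, so p-values measure the spread between these libraries, which may be technical in part. Cells were sorted as CD25+ CD44-, without surface CD8, CD3 or TCRβ and without binding of NK1.1 antibody or CD1d tetramer, and RNA was amplified with a SMART-Seq v4 kit, which does not mark strand.

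The lysosome is the acidic compartment in which cells break down proteins, sugars and lipids delivered by endocytosis and autophagy. Its soluble enzymes are made in the endoplasmic reticulum, most carry a mannose 6-phosphate tag that receptors sort to the lysosome, and membrane proteins such as LAMP1 line and protect it. TFEB and TFE3, factors of the MiT family, bind an E-box in many lysosomal genes and raise them together when nutrients are short. Thymocytes depend on autophagy and lysosomal turnover during development, and cathepsins have further roles in antigen presenting cells, where they process antigen for MHC class II.

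Total counts were 19589938 in KO 1 and 13673860 in KO 2, and 23711513 to 41666797 in WT. Tcf7 itself stood at 1133 and 1022 CPM (counts scaled to library size) in KO 1 and KO 2, against 2326, 2269.8, 2266 and 2094 CPM in WT 1 to 4 (log2 -1.05, adjusted p = 0.00127 by edgeR's quasi-likelihood test with Benjamini-Hochberg adjustment). Both KO libraries were below WT with transcripts still counted, and the removed exons are not named in the labels. The 11 DN3 markers were counted in every library, 1 higher and 5 lower in KO (54.5% called, beside 30.7% of all genes tested). Their summed level was 8892 and 8965 CPM in KO 1 and KO 2 and 10648 to 11434 CPM in WT. Single markers differed more between the KO libraries than these sums. Rag1 had 521 and 1953 CPM and Il2ra 1131 and 708 CPM in KO 1 and KO 2, with KO 2 the higher for 4 of the 11. The spread between KO libraries was the wider one: chi-square per degree of freedom over genes was 104.1 between KO 1 and KO 2 and 3.37 to 23.1 between WT libraries. Mitochondrial genes took 0.893% and 1.78% in KO 1 and KO 2 and 2.61% to 2.92% of counts in WT. Transcripts typical of other lymphocytes were counted in both KO libraries. Of the B cell genes, Cd22 had 6.29 and 25.2 CPM in KO 1 and KO 2 and at most 0.035 CPM in WT. Ms4a1 and Pax5 had 0 counts in KO 1 and in all 4 WT libraries but 36.0 and 7.54 CPM in KO 2. Other B cell genes were counted in WT as well: Ighm had 185 to 220.3 CPM and Cd79b 42.4 to 50.8 CPM in WT. Cd79b stood at 10.8 and 62.5 CPM in KO 1 and KO 2, below and above that range. Cd8a had 66.9 and 858 CPM in KO 1 and KO 2 and 0.703 to 3.72 CPM in WT, although the sort took CD8- cells.

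Lysosomal genes did not move as a block in KO cells. Of the 45 genes, 44 passed the filter on low counts; the one that did not, Ctsh, is described with the proteases. By edgeR's quasi-likelihood test, adjusted over all 13294 genes tested, 6 of the 44 were higher in KO, 7 were lower and 31 did not pass. Those 13 are 29.5% of the 44, beside 30.7% of all genes tested (14.1% higher and 16.5% lower), so the share is near the background and is no result about the group. The median log2 fold change was -0.12 over the 44 and -0.04 over all genes tested. Among the genes that passed, Ppt1, Gaa, Idua, Grn, Ctsd, Tpp1 and Ppt2 fell, and Arsb, Lgmn, Ctss, Tfeb, Ctsz and Tfe3 rose. With limma-voom and weights per genotype, which called 11.3% of all genes, Ppt1, Gaa, Grn, Ctsd, Arsb and Tfeb stayed under an adjusted p of 0.05.

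**Figure D1:**
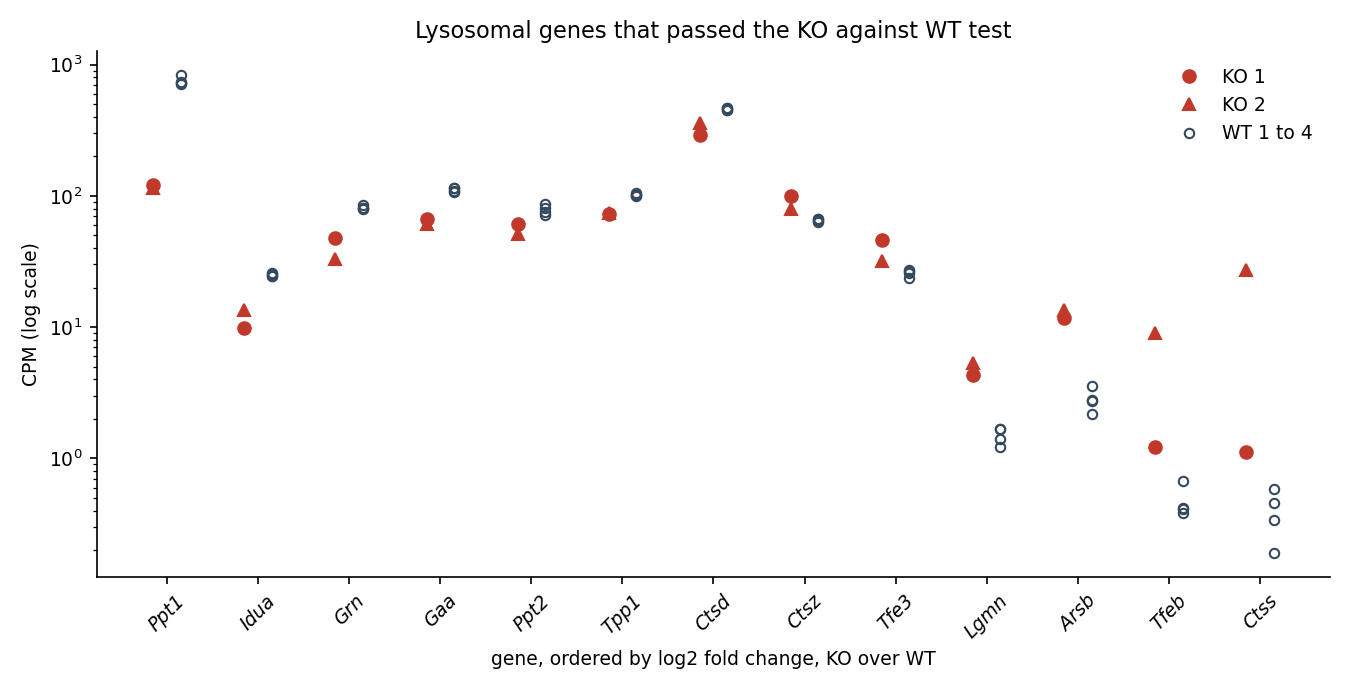
Level of the 13 lysosomal genes called by edgeR, in CPM on a log axis, with 1 point per library; KO 1 (filled circle) and KO 2 (filled triangle) stand left of the 4 WT libraries (open circles). Ppt1 is at 121 and 114 CPM in KO 1 and KO 2, below all WT libraries, while Ctss and Tfeb differ widely between KO 1 and KO 2.

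Ppt1 had the smallest adjusted p of the 45 genes. It encodes palmitoyl-protein thioesterase 1, which removes fatty acids from proteins during their breakdown and is lost in a childhood neuronal ceroid lipofuscinosis. It stood at 121 and 114 CPM in KO 1 and KO 2, against 734, 726, 709 and 837 CPM in WT 1 to 4. Both KO libraries lay far below every WT library and close to each other. The fall was 6.57-fold (log2 -2.71, SE 0.073, adjusted p = 7.09e-05 by edgeR), and it passed in all 13 alternative fits, 3 of which rest on 1 KO library, with log2 values between -2.80 and -2.64. Per length, Ppt1 was first of the 45 genes in WT at 301 RPKM (CPM divided by gene length in kilobases) and 8th in KO at 47.1 RPKM. Ppt1 (Entrez 19063) lies on chromosome 4 from 122836077 to 122859175 and overlaps Cap1 on the other strand, so reads in the overlap cannot be told apart; Cap1 had 434 and 520 CPM in KO 1 and KO 2 and 417 to 440.3 CPM in WT (adjusted p = 0.163). In bulk RNA, fewer cells of a type and less RNA per cell cannot be told apart, here or in what follows.

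The summed level of the 45 genes was 3220 and 4152 CPM in KO 1 and KO 2 and 4402 to 4790 CPM in WT. Ppt1 carried much of that gap. Without it the sum was 3099 CPM in KO 1, below all WT libraries, and 4038 CPM in KO 2, above all WT libraries, which ran from 3693 to 3953 CPM.

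The transcription factor genes Tfeb and Tfe3 both rose. Tfeb, whose product is a main activator of lysosomal genes, had 1.23 and 9.03 CPM in KO 1 and KO 2, against 0.410, 0.668, 0.422 and 0.387 CPM in WT 1 to 4. Both KO libraries were above WT, but KO 2 was 7.35 times KO 1. The fitted change was log2 3.38 (SE 0.592, adjusted p = 0.0131); without KO 2 it was log2 1.64 with an adjusted p of 0.0506, and without WT 1, 2 or 3 the adjusted p was 0.0624, 0.061 and 0.0603. Tfe3, its relative, stood at 46.4 and 32.0 CPM in KO 1 and KO 2, against 26.6, 23.7, 25.6 and 27.3 CPM in WT 1 to 4. It rose 1.43-fold (log2 0.51, SE 0.130, adjusted p = 0.037), a call that did not hold without WT 1, 2 or 3 (adjusted p of 0.0798, 0.113 and 0.101, in that order), nor by limma-voom (0.21). Over all genes, the fits without WT 1, 2 or 3 called 1665, 1714 and 1743, beside 4076 with every library. Losing a call in those fits was therefore common and not particular to a gene, here or in what follows. Per length, Tfe3 was the more abundant of these 2 factors in both groups, with a mean level of 12.0 RPKM in KO and 7.89 RPKM in WT, beside 1.81 RPKM in KO and 0.167 RPKM in WT for Tfeb.

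The promoter windows of the listed genes were searched for the E-box that TFEB and TFE3 bind. RefSeq windows of assembly GRCm38.p6, from 250 bases before to 50 after a start site, were at hand for 39 of the 45 genes; Ctsb, Ctse, Ctsh, Ctsw, Asah1 and Npc1 had none. On either strand, TCACGTG, whose reverse complement reads CACGTGA and which holds the palindrome CACGTG, was in the window of 12 of the 39 genes (30.8%) and of 4.29% of the 27025 genes with a window. The longer TCACGTGA, which overlaps it, was in 5 of the 39 (12.8%) and in 1.12% of all. Of the 12 genes with TCACGTG, Lgmn rose, Ctsd and Gaa fell and 9 did not pass, beside 30.7% called over all genes tested. So few calls give no result about these genes as a set. The letters CTTTGAA and CTTTGAT, of the kind that TCF-1 and LEF-1 bind, were in 1 gene (Lipa) and 2 genes (Lamp2 and Npc2) of the 39, against 5.93% and 4.29% of all genes. A match is a run of letters, not a measured binding site. The following sites, on the gene's own strand from 5′ to 3′, are from the 3 called genes and from 4 genes that hold the 8-base form but did not pass, with the match in capitals.
Lgmn, chr12:102439126-102439152, minus strand: ggaatgtctgTCACGTGgtccatttta
Ctsd, chr7:142387909-142387936, minus strand: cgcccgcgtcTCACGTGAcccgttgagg
Gaa, chr11:119267812-119267838, plus strand: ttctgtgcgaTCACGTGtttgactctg
Ctsa, chr2:164833750-164833777, plus strand: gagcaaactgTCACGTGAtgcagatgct
Cln3, chr7:126583341-126583368, minus strand: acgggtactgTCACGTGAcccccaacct
Gla, chrX:134601216-134601243, minus strand: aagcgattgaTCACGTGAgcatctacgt
Mcoln1, chr8:3500463-3500490, plus strand: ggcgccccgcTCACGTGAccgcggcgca
For Ppt1, none of these motifs was found in the window, whose start site lies inside the gene span given above.

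Among the 13 proteases, 3 rose, 2 fell, 7 did not pass and 1 was not tested, so 41.7% of the 12 tested were called, beside 30.7% of all genes tested, a difference that was not tested. The abundant aspartic protease gene Ctsd, number 3 of the listed genes per length in WT at 234 RPKM, stood at 289.9 and 356 CPM in KO 1 and KO 2, against 469.6, 463, 449 and 447 CPM in WT 1 to 4. Both KO libraries were below WT, a 1.39-fold fall (log2 -0.47, SE 0.081, adjusted p = 0.0119 by edgeR). The call was lost without WT 1, 2 or 3 (adjusted p = 0.0656, 0.0573 and 0.0502), while the change stayed at log2 -0.46, -0.48 and -0.49. Tpp1, a tripeptidyl peptidase, had 72.6 and 74.5 CPM in KO 1 and KO 2, against 102, 101, 99.6 and 106 CPM in WT 1 to 4. It fell 1.39-fold as well (log2 -0.48, SE 0.069, adjusted p = 0.0069), with an adjusted p of 0.0505 without WT 1 and 0.121 with weights per genotype. Lgmn, which encodes the asparaginyl endopeptidase legumain, was scarce everywhere, at 4.30 and 5.30 CPM in KO 1 and KO 2 and 1.23 to 1.67 CPM in WT. It rose 3.30-fold (log2 1.72, SE 0.272, adjusted p = 0.00924; 0.0501 without WT 1 and 0.153 with weights per genotype). Ctsz, a carboxypeptidase, rose 1.34-fold, with 100.4 and 79.8 CPM in KO 1 and KO 2 and 63.5 to 66.6 CPM in WT (log2 0.42, SE 0.093, adjusted p = 0.024). It did not pass once WT 1, 2 or 3 was left out (adjusted p of 0.0655, 0.0892 and 0.0867, in that order), nor by limma-voom (0.15). Nelfcd, which overlaps it, had 138 and 74.9 CPM in KO 1 and KO 2 and 70.2 to 76.8 CPM in WT.

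Several cathepsins were far higher in KO 2 than in KO 1. Ctss, a cysteine protease of antigen presenting cells, had 1.13 and 27.2 CPM in KO 1 and KO 2, against 0.338, 0.585, 0.192 and 0.457 CPM in WT 1 to 4. Its fitted rise was log2 4.84 (SE 1.05, adjusted p = 0.0234); without KO 2 it was log2 1.28 (adjusted p = 0.139), without WT 1, 2 or 3 the adjusted p was 0.103, 0.0983 and 0.0878, and with weights per genotype it was 0.0743. Ctse, an aspartic protease of immune cells, stood at 33.8 and 188 CPM in KO 1 and KO 2, against 39.1, 34.8, 35.8 and 42.2 CPM in WT 1 to 4 (adjusted p = 0.101). Ctsl, a broad cysteine protease that also cuts the invariant chain in thymic epithelium, had 19.0 and 85.8 CPM in KO 1 and KO 2 and 38.1 to 44.0 CPM in WT (adjusted p = 0.674), so KO 1 lay below all WT libraries and KO 2 above them. Ctsc, which activates granzymes, had 50.6 and 121 CPM in KO 1 and KO 2 and 62.4 to 66.8 CPM in WT (adjusted p = 0.237). Ctsh, an aminopeptidase, was not tested: it had 0 counts in KO 1 and 86 in KO 2, and 0, 0, 1 and 1 counts in WT 1 to 4.

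Markers of other cells differed between the groups too, not all of them with KO 2 above KO 1. Over all genes tested, 30.7% were called, 14.1% higher and 16.5% lower in KO. Of tested markers, 77.8% were called for B cells, 66.7% for dendritic cells and 75% for macrophages and monocytes. The share was 50% for double positive or CD8 T cells, 57.1% for NK and innate lymphoid cells, 71.4% for epithelium and stroma and 40% for erythroid cells. These lists are short, and their differences from all genes were not tested. Of the 12 B cell markers, 9 were tested, of which 7 were higher in KO and none lower. Their summed level was 815 and 1200 CPM in KO 1 and KO 2 and 257 to 287 CPM in WT. Ighm (522 and 877 CPM in KO 1 and KO 2, 185 to 220.3 CPM in WT) and Blk (268 and 75.4 CPM in KO 1 and KO 2, 19.2 to 21.6 CPM in WT) made up most of it. Cd22, Cd79a, Ighd and Fcer2a were above every WT library in both KO libraries and higher in KO 2, while Ms4a1 and Pax5 were at 0 in KO 1 and WT. Cd79b did not pass, with KO 1 below the WT range and KO 2 above it. Of the 13 dendritic cell markers, 6 were tested, of which 4 were higher, and the sum was 23.3 and 660.3 CPM in KO 1 and KO 2 and 9.78 to 12.9 CPM in WT. Most of that sum in KO 2 came from Cd74, at 359 CPM, together with the class II genes, all of which B cells share. Ccr7 made up most of the KO 1 sum and rose (19.8 and 22.0 CPM in KO 1 and KO 2, 1.30 to 2.27 CPM in WT). Flt3 and Xcr1 had 0 counts in KO 1 and 5 and 6 counts in KO 2, while Itgax was below WT in both without passing. Siglech and Cd209a were at 0 in all 6 libraries, and Zbtb46, Clec9a and Batf3 in both KO libraries. Of the 15 macrophage and monocyte markers, 4 were tested, with 2 higher and 1 lower, and the sum was 9.47 and 18.5 CPM in KO 1 and KO 2 and 19.7 to 23.3 CPM in WT. Lyz2 carried most of the WT sum and fell (0.154 and 1.19 CPM in KO 1 and KO 2, 16.8 to 18.4 CPM in WT), while Itgam (4.81 and 6.87 CPM in KO 1 and KO 2, 0.492 to 0.752 CPM in WT) and Mpeg1 (0.665 and 3.96 CPM in KO 1 and KO 2, 0.084 to 0.351 CPM in WT) rose. C1qa, C1qb, C1qc, Fcgr1, Mertk, Cd14 and Marco were at 0 in both KO libraries and at or near 0 in WT. Of the 8 markers of double positive or CD8 T cells, 4 were higher and none lower, with sums of 418 and 2665 CPM in KO 1 and KO 2 and 506 to 587 CPM in WT. Of the 14 markers of NK and innate lymphoid cells, 7 were tested, with 4 higher and none lower. Their sums were 1414 and 1545 CPM in KO 1 and KO 2 and 274 to 317 CPM in WT, most of it Gzma. Besides Gzma, Il2rb (20.4 and 25.7 CPM in KO 1 and KO 2, 0.527 to 1.11 CPM in WT), Prf1 (2.15 and 10.5 CPM, 0.211 to 0.460 CPM) and Gzmb (2.20 and 26.0 CPM, 0 to 0.410 CPM) rose. Nkg7 was below WT in both KO libraries without passing (51.2 and 48.7 CPM, 54.0 to 70.0 CPM). Id2 (5.07 and 22.5 CPM, 11.5 to 14.3 CPM) and Tbx21 (0 and 1.04 CPM, 0.418 to 0.958 CPM) were below WT in KO 1 and above it in KO 2. Ncr1, Zbtb16 and Klre1 were at 0 in both KO libraries. Of the 12 markers of thymic epithelium and stroma, 7 were tested, with 2 higher and 3 lower. Their sums were 966 and 416 CPM in KO 1 and KO 2 and 323 to 345 CPM in WT. Pdgfrb made up most of the KO 1 sum and rose (773 and 226 CPM in KO 1 and KO 2, 61.5 to 66.4 CPM in WT), as did Pecam1. Epcam fell (46.1 and 52.9 CPM in KO 1 and KO 2, 147 to 158 CPM in WT). Aire (0 in both KO libraries, 0.537 to 1.62 CPM in WT) and Cdh5 (0.051 and 0 CPM, 0.483 to 0.752 CPM) fell too. Foxn1, Krt5 and Col3a1 were at 0 in all 6 libraries. Of 5 tested erythroid markers 2 were higher, with sums of 3.38 and 33.5 CPM in KO 1 and KO 2 and 3.97 to 14.95 CPM in WT. The part of any of these cells in the cathepsin values was not tested.

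The other proteases did not pass. Ctsb, an abundant cysteine protease, had 261 and 248 CPM in KO 1 and KO 2, inside the WT range of 244 to 267 CPM. Ctsa, the protective protein of lysosomal neuraminidase, had 153 and 134 CPM in KO 1 and KO 2 and 139.7 to 159 CPM in WT. Ctso had 20.9 and 34.9 CPM in KO 1 and KO 2, below the 35.6 to 38.8 CPM of WT, without passing (adjusted p = 0.179). Ctsw, a protease of CD8 T cells and NK cells, was at 3.63 CPM in KO 1, below WT, and at 17.1 CPM in KO 2, just above the WT range of 14.7 to 16.3 CPM (adjusted p = 0.374).

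**Figure D2:**
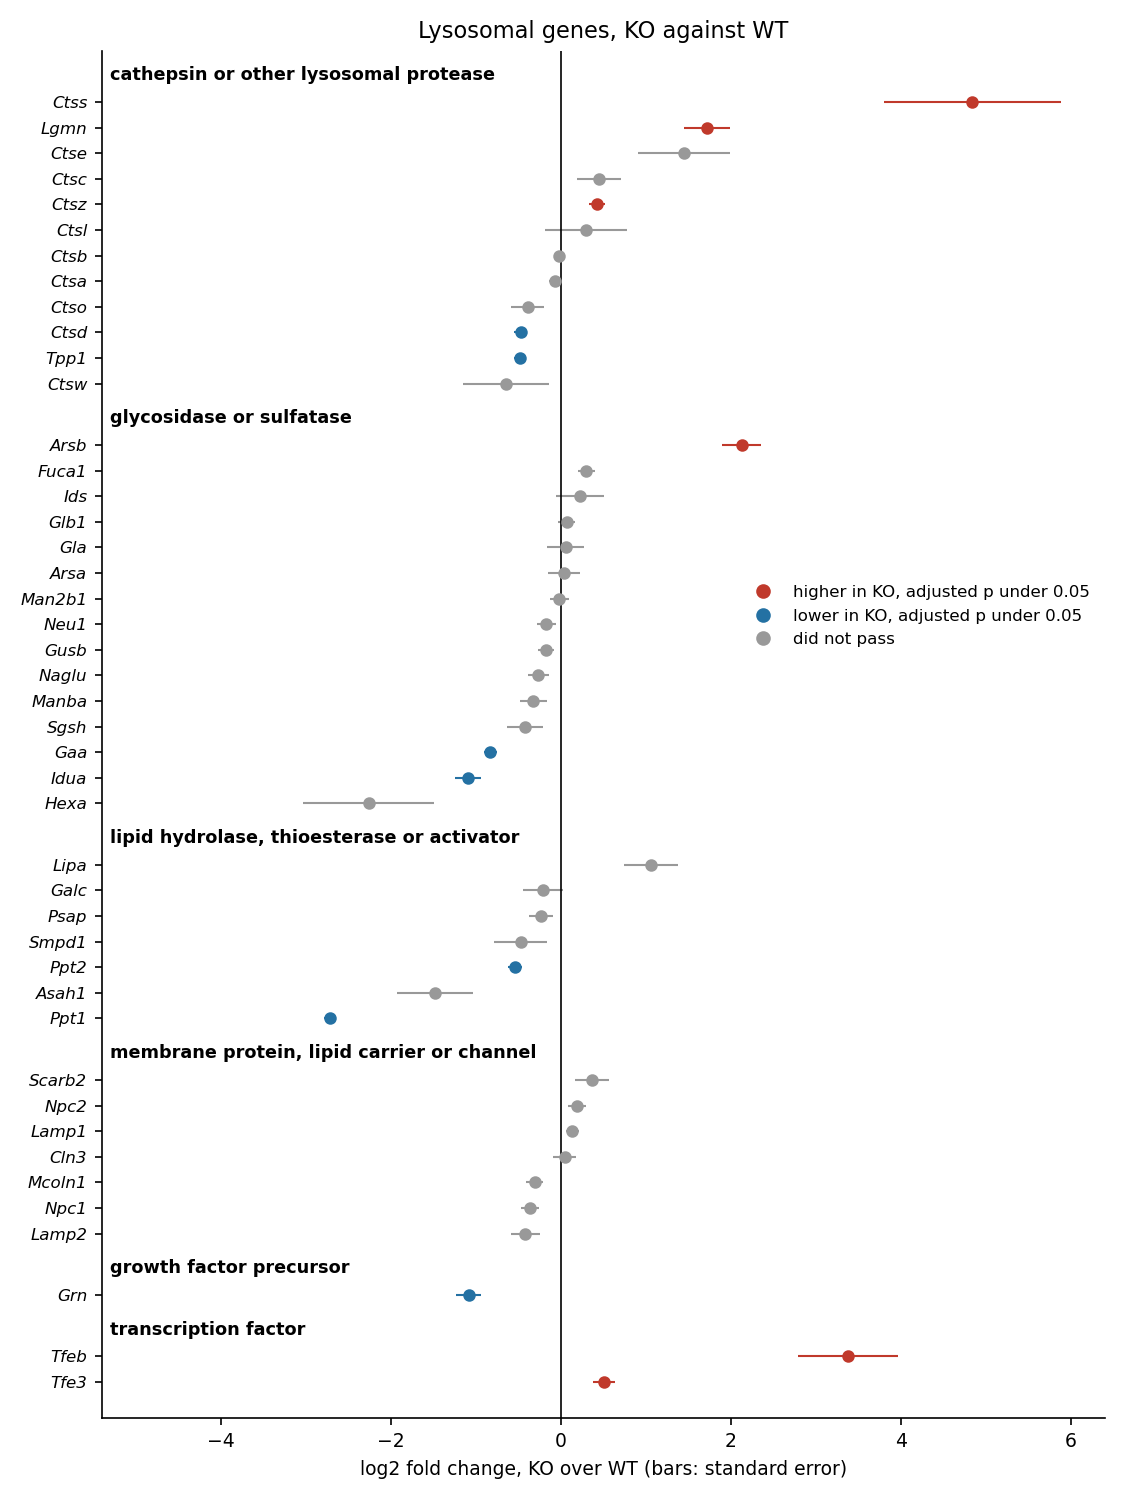
Log2 fold change, KO over WT, of the 44 tested lysosomal genes by role, with bars for the standard error and colours for the edgeR call. Ppt1 lies at -2.71 with a narrow bar, while Ctss, Tfeb, Hexa and Ctse have wide bars and differ between KO 1 and KO 2.

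Of the 15 glycosidases and sulfatases, 1 rose, 2 fell and 12 did not pass (20% called, beside 30.7% of all genes tested). Arsb, the sulfatase that acts on dermatan and chondroitin sulfate, stood at 11.8 and 13.4 CPM in KO 1 and KO 2, against 2.78, 2.72, 2.18 and 3.58 CPM in WT 1 to 4. The KO libraries were alike and above WT, a 4.37-fold rise (log2 2.13, SE 0.232, adjusted p = 0.00304 by edgeR; 0.0081 with weights per genotype). Gaa, the acid α-glucosidase that degrades glycogen and is deficient in Pompe disease, had 66.4 and 60.5 CPM in KO 1 and KO 2, against 114, 109.7, 106 and 114 CPM in WT 1 to 4. It fell 1.78-fold (log2 -0.83, SE 0.075, adjusted p = 0.00165; 0.0212 with weights per genotype). Idua, the α-L-iduronidase of heparan and dermatan sulfate breakdown, had 9.77 and 13.4 CPM in KO 1 and KO 2, against 24.6, 24.3, 25.2 and 25.8 CPM in WT 1 to 4. It fell 2.12-fold (log2 -1.09, SE 0.154, adjusted p = 0.00663; 0.0976 with weights per genotype), and it overlaps Slc26a1 and Dgkq on the other strand.

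Hexa had the widest gap among genes that did not pass. It encodes the α subunit of β-hexosaminidase, which breaks down GM2 ganglioside and is deficient in Tay-Sachs disease. It had 1.38 and 16.0 CPM in KO 1 and KO 2, against 38.9, 36.1, 35.4 and 39.4 CPM in WT 1 to 4. Both KO libraries were below WT, by 27.1 times in KO 1 and 2.33 times in KO 2, and the fitted change was log2 -2.26 (SE 0.771, adjusted p = 0.0803; 0.0188 with weights per genotype). Gusb, Manba and Naglu were likewise below WT in both KO libraries without passing, and Gusb stood at 88.4 and 79.4 CPM in KO 1 and KO 2 and at 89.1 to 100.1 CPM in WT. Fuca1 was above WT in both, at 51.4 and 40.6 CPM in KO 1 and KO 2 and 33.6 to 37.5 CPM in WT (adjusted p = 0.0822). Ids, Glb1 and Man2b1 were below WT in KO 1 and above it in KO 2, with 18.1 and 44.3 CPM for Ids beside 26.1 to 27.8 CPM in WT. Neu1 went the other way, at 67.9 and 50.002 CPM in KO 1 and KO 2 and 62.1 to 64.8 CPM in WT. Arsa and Gla had KO 2 within the WT range and KO 1 above it, and Sgsh had KO 2 within it and KO 1 below.

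Of the 7 genes for lipid hydrolases, thioesterases and their activator, Ppt1 and Ppt2 fell and 5 did not pass (28.6% called, beside 30.7% of all genes tested). Ppt2, a second lysosomal thioesterase, had 61.2 and 51.4 CPM in KO 1 and KO 2, against 75.3, 80.3, 71.3 and 86.7 CPM in WT 1 to 4. Its fall was 1.45-fold (log2 -0.54, SE 0.084, adjusted p = 0.00896 by edgeR), with an adjusted p of 0.0509 without WT 1 and 0.218 with weights per genotype. Psap, the precursor of the saposins that help hydrolases reach lipids, was second per length in WT and first in KO, at 247 RPKM in KO and 294 RPKM in WT. It had 558 and 791 CPM in KO 1 and KO 2, against 817, 787, 769.5 and 839.8 CPM in WT 1 to 4 (adjusted p = 0.259), so KO 1 alone was below WT. Lipa, the acid lipase that frees cholesterol from its esters, had 67.9 and 168 CPM in KO 1 and KO 2 and 51.3 to 63.2 CPM in WT, above WT in both (log2 1.06, SE 0.315, adjusted p = 0.0565). Asah1, the acid ceramidase, had 1.74 and 5.97 CPM in KO 1 and KO 2 and 8.93 to 11.7 CPM in WT, below WT in both (log2 -1.48, SE 0.449, adjusted p = 0.0599). Smpd1, acid sphingomyelinase, had 9.31 and 22.2 CPM in KO 1 and KO 2 and 20.3 to 23.6 CPM in WT, and Galc, a galactosylceramidase, had 9.06 and 5.22 CPM in KO 1 and KO 2 and 6.52 to 8.01 CPM in WT.

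None of the 7 genes for membrane proteins, lipid carriers and channels passed edgeR's test, beside 30.7% of all genes tested. The smallest adjusted p by edgeR was 0.0578 for Npc1, then 0.0684 for Mcoln1. With weights per genotype, limma-voom called 0 of the 7, beside 11.3% of all genes. DESeq2, which called 5167 of 17878 genes, called Npc1 (adjusted p = 0.0306). Lamp1, a main glycoprotein of the lysosomal membrane and number 4 per length in WT, had 193 and 222 CPM in KO 1 and KO 2, against 197, 190.0, 185 and 190.4 CPM in WT 1 to 4. Npc2, which hands cholesterol to the NPC1 protein and ranked 5 per length, had 246 and 312 CPM in KO 1 and KO 2, against 246, 248, 238 and 257 CPM in WT 1 to 4. In both genes KO 1 was inside the WT range and KO 2 above it. Lamp2 (61.2 and 102 CPM in KO 1 and KO 2, 109.1 to 114 CPM in WT) and Npc1 (115 and 131 CPM in KO 1 and KO 2, 147 to 174 CPM in WT) were below WT in both KO libraries. Scarb2, which carries β-glucocerebrosidase to the lysosome, had 53.8 and 102 CPM in KO 1 and KO 2 and 59.5 to 63.5 CPM in WT. The channel gene Mcoln1 and Cln3 had at least 1 KO library within the WT range.

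Grn, the precursor of progranulin, a secreted growth factor that is cut into granulins in the lysosome, fell in every fit. It had 47.8 and 33.1 CPM in KO 1 and KO 2, against 85.7, 79.3, 81.3 and 81.4 CPM in WT 1 to 4. Both KO libraries lay below WT, a 2.12-fold fall (log2 -1.08, SE 0.146, adjusted p = 0.00586 by edgeR), and the adjusted p was 0.0441 or less in each of the 13 alternative fits.

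The 2 KO libraries differed from each other at many lysosomal genes, as they did over all genes tested. The median size of the log2 ratio of KO 2 to KO 1 was 0.428 over the 44 tested genes. It was 0.433 over all genes tested, so the typical gap was near the background and is no result about the group. Both KO libraries lay above the WT range for 8 of the 44 tested genes and below it for 15, beside 22.9% and 28.6% of all genes tested. For 8 genes, Ctsc, Ctse, Ctsl, Ctsw, Glb1, Ids, Man2b1 and Scarb2, KO 1 was below the WT range and KO 2 above it, which held for 10.6% of all genes tested. Neu1 and Galc lay the other way round. That makes 10 of the 44 with KO 1 and KO 2 on opposite sides of the WT range. This share is near the 21.6% of all genes tested. KO 2 was at least 2 times KO 1 for 12 of the 44, beside 16.7% of all genes tested, and KO 1 was at least 2 times KO 2 for 0 of the 44, beside 11.8%. In the model with an interaction of genotype and sex, 29 of the 44 passed, beside 54.7% of all genes tested. With 1 KO library of each sex, a difference between the libraries, between the sexes and in other cells of the sort cannot be told apart.

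**Figure D3:**
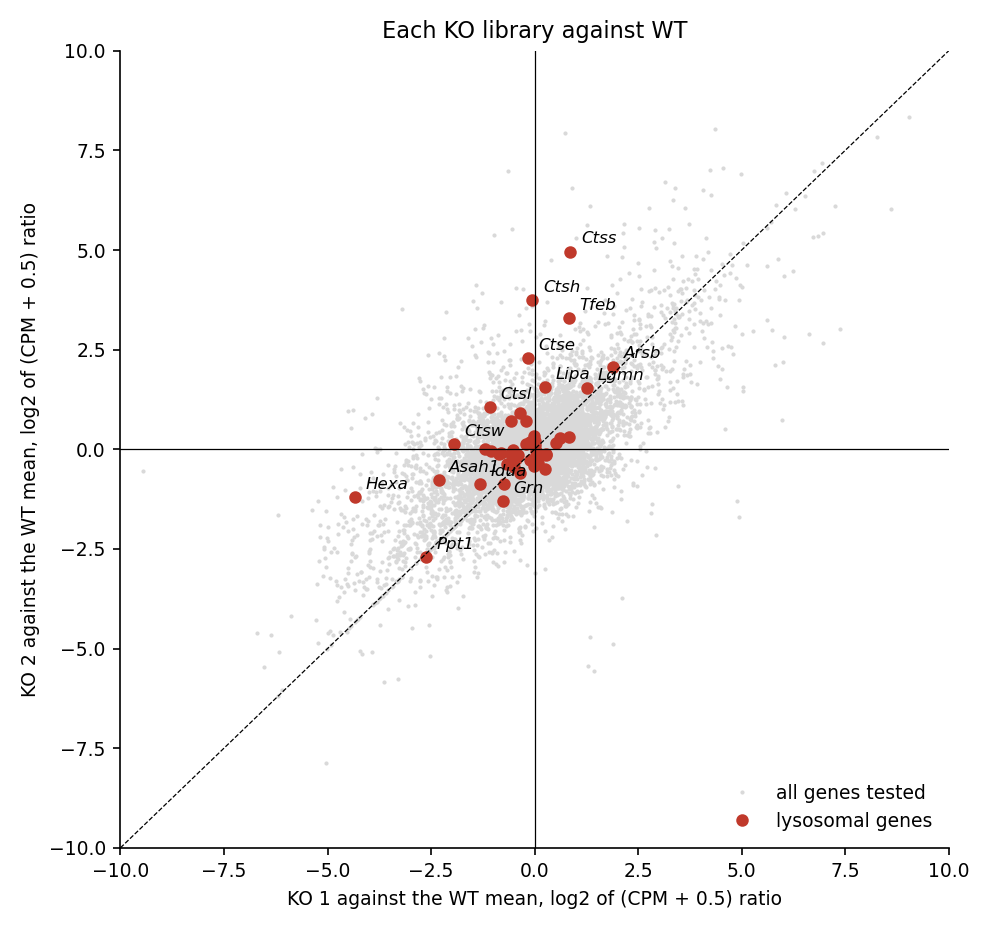
Each KO library against the WT mean, as log2 of the ratio of CPM plus 0.5, KO 1 on the x axis and KO 2 on the y axis; red points are the 45 lysosomal genes, grey points all genes tested, and the dashed line marks equal change. Ppt1 and Arsb lie on the line, while Ctss, Ctsh, Tfeb and Ctse lie far above it and Hexa lies farther from 0 in KO 1 than in KO 2.

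Genes around the lysosome outside the list gave both directions too. Sort1, the sorting receptor sortilin that brings some enzymes to the lysosome, fell to 3.74 and 3.66 CPM in KO 1 and KO 2, against 57.4 to 59.5 CPM in WT (log2 -3.98, SE 0.097, adjusted p = 5.03e-05 by edgeR). Igf2r, the large mannose 6-phosphate receptor, rose to 311 and 217 CPM in KO 1 and KO 2, against 101 to 112 CPM in WT (log2 1.26, SE 0.149, adjusted p = 0.00399). In that list of 15 genes for tagging and sorting, 3 rose and 1 fell (26.7% called, beside 30.7% of all genes tested). The adaptor gene Ap1g1 rose (log2 0.32, adjusted p = 0.0242), with KO 1 at 148 CPM inside the WT range of 127 to 151 CPM. Of 29 other hydrolase genes tested, 2 rose and 5 fell (24.1% called, beside 30.7% of all genes tested). Acp5, an acid phosphatase, rose, with 83.1 and 105 CPM in KO 1 and KO 2 and 26.4 to 29.2 CPM in WT. Prcp, a carboxypeptidase, fell, with 8.14 and 8.28 CPM in KO 1 and KO 2 and 23.3 to 26.5 CPM in WT. Of 27 other membrane proteins and transporters tested, 6 rose and 7 fell. That is 48.1% called, beside 30.7% of all genes tested, a difference that was not tested. The channel gene Tpcn1 (182 and 159.6 CPM in KO 1 and KO 2, 99.3 to 108 CPM in WT) and the iron transporter gene Slc11a2 (214 and 117 CPM in KO 1 and KO 2, 57.0 to 61.8 CPM in WT) rose. Mfsd12 fell (12.5 and 9.55 CPM in KO 1 and KO 2, 18.8 to 20.7 CPM in WT).

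In the lists for the proton pump, nutrient sensing and autophagy, 17.6%, 14.3% and 16.7% of tested genes were called, beside 30.7% of all genes tested, and the difference was not tested. Of 17 subunit genes of the vacuolar ATPase, Atp6v0d1 rose (log2 0.38, adjusted p = 0.0175), Atp6ap2 and Tcirg1 fell (log2 -0.54 and -0.70, with KO 1 inside the WT range for Tcirg1) and 14 did not pass. Of 21 tested genes for the MiT family and lysosomal nutrient sensing, Rragd rose (log2 1.23, adjusted p = 0.0135, with KO 1 at 3.74 CPM inside the WT range of 1.79 to 4.10 CPM), Mtor and Rragb fell (log2 -0.32 and -2.08) and 18 did not pass. Rragb was below WT in both KO libraries but differed between them, with 8.09 and 1.72 CPM in KO 1 and KO 2 and 14.5 to 17.0 CPM in WT (adjusted p = 0.0418 by edgeR). Of 24 autophagy genes, Ulk1, a kinase that starts autophagy, rose (log2 0.37, adjusted p = 0.0122), 3 fell, among them Atg14 and Gabarapl1 (log2 -0.49 and -1.69), and 20 did not pass. Gabarapl1 differed between the KO libraries too, with 26.3 and 5.97 CPM in KO 1 and KO 2 and 34.3 to 42.7 CPM in WT (adjusted p = 0.0433 by edgeR). Of 7 tested inhibitor genes of lysosomal proteases, 2 rose and none fell (28.6% called, near the 30.7% of all genes tested). Cst7, which encodes cystatin F, an inhibitor of cathepsins in cytotoxic cells, had 12.7 and 21.2 CPM in KO 1 and KO 2 and 3.55 to 4.01 CPM in WT (log2 2.22, SE 0.230, adjusted p = 0.00272), and Serpinb6b had 43.1 and 72.2 CPM in KO 1 and KO 2 and 23.0 to 26.4 CPM in WT (log2 1.26, SE 0.196, adjusted p = 0.00935).

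**Figure D4:**
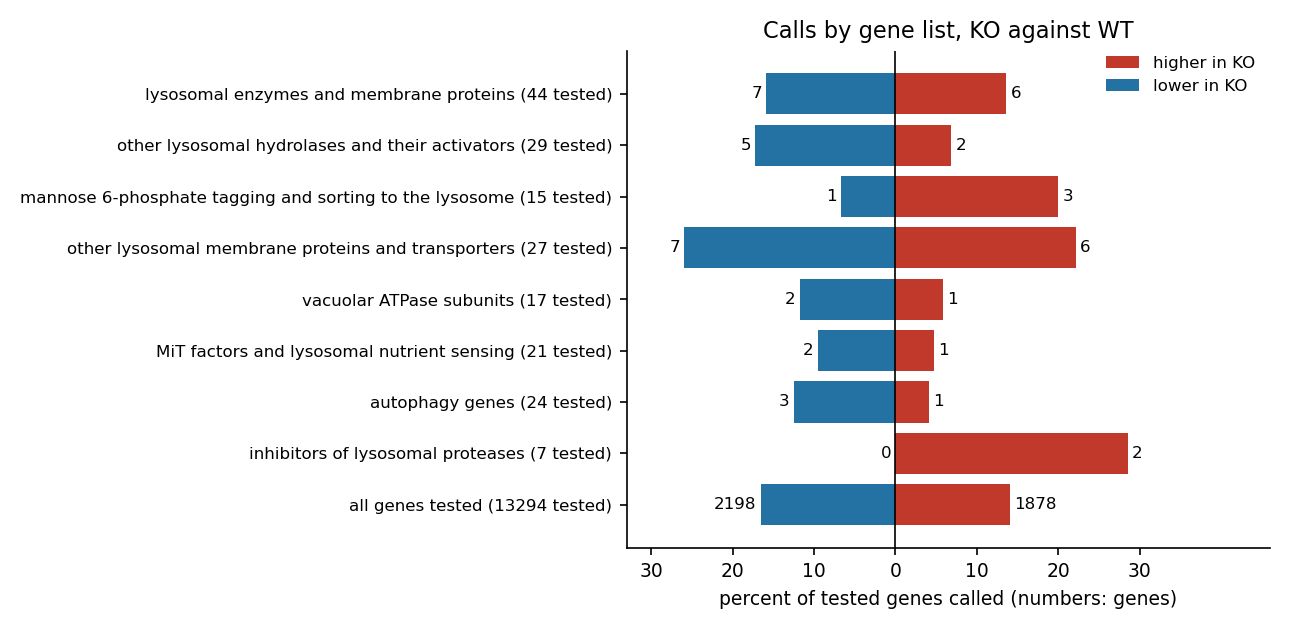
Percent of tested genes called lower in KO (left of 0) or higher in KO (right of 0) in the list of lysosomal enzymes and membrane proteins, in 7 neighbouring lists and over all genes tested, with gene numbers beside the bars. In the lysosomal list 6 were higher and 7 lower, close to the shares over all genes.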

How the data were processed

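RNA of sorted double negative 3 thymocytes was sequenced in 2 KO and 4 WT libraries. The authors deposited raw counts for each Entrez identifier; featureCounts and mm10 are named in the submitters' processing notes, and neither aligner nor strand setting is given in the sources used here. Of 26332 genes, 25275 were given a symbol from RefSeq's gene table (GRCm38.p6, the assembly behind mm10) by Entrez identifier. Positions and promoter windows come from that assembly. GeneLength, deposited beside the counts, was used for RPKM.

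After filterByExpr (count minimum 10) and TMM scaling, the quasi-likelihood F-test of edgeR 4.0.16 in R 4.3.3 compared KO with WT, with sex as an additive term and 3 residual degrees of freedom. Called genes had an adjusted p (Benjamini-Hochberg) under 0.05 over the 13294 genes tested. The script was run on simulated counts with the WT spread in both genotypes, so that run did not test the wider KO spread. CPM values use TMM-scaled library sizes. SE, the standard error, is the size of the log2 fold change divided by the square root of F. A model with an interaction of genotype and sex served to compare the 2 KO libraries. Alternatives were no sex term, DESeq2 1.42.0 and its size factors, 2 other filters, limma 3.58.1 voom with weights per genotype, the replicate number as a block, and leaving out each library.

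Members and lists were chosen with earlier results of these data known. Values in every library are given for members called with at least a 2-fold change and 5 CPM, the 5 members highest per length in WT, Tfeb and Tfe3; values of other members named singly were chosen after they were seen. From each further list up to 3 called genes with the smallest adjusted p and at least 5 CPM are named. Some genes are not reported here.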

Additional observations from a re-analysis of the deposited data

Results flagged for a closer look

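In WT, 1 library stood apart from the other 3 for 2 of the 44 genes examined: Mcoln1 in WT 4, at 28.7 CPM, and Tfeb in WT 2, at 0.668 CPM. Chance alone sets apart a library in about 1 in 20 such groups.

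The edgeR model with an interaction set the genotype effect in the male pair (KO 1 and WT 4) beside that in females (KO 2 and WT 1 to 3). Its residual spread came from WT 1 to 3 alone, so its p-values hold no spread between KO libraries or between males. Genes that passed it are given by effect size only. Given as the effect in males minus that in females, on the log2 scale, the difference was -4.92 for Ctss, -3.62 for Hexa, -2.67 for Ctse, -2.55 for Tfeb, -2.32 for Ctsl, -2.31 for Ctsw, -1.88 for Asah1, -1.52 for Lipa, -1.35 for Smpd1, -1.32 for Ids and -1.21 for Ctsc. It was -0.92 for Scarb2, -0.88 for Sgsh, -0.82 for Ctso, -0.75 for Lamp2, -0.59 for Manba, -0.59 for Psap, -0.52 for Idua, -0.44 for Man2b1, -0.42 for Npc2, -0.40 for Npc1, -0.31 for Glb1, -0.25 for Ctsd and -0.19 for Lamp1. The effect was higher in males for Gusb (0.29), Ctsz (0.30), Neu1 (0.40), Tfe3 (0.43) and Grn (0.55). With 1 KO library of each sex, sex and a difference between these libraries cannot be told apart.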

How the results depend on the processing

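The 13 calls kept their direction in every alternative that tested them, and all 13 passed with no sex term, other size factors, no filter and DESeq2. Ppt1 and Grn passed in all 13 alternatives. With weights per genotype, 1500 genes were called over the whole table and 2 members were higher. Leaving out 1 library gave 1665 (without WT 1) to 9473 (without KO 2) genes, 1 (without WT 1) to 18 (without KO 1) members higher and 4 (without WT 1) to 25 (without KO 2) members lower; without KO 2 the genotype term rests on KO 1 against WT 4, and without KO 1 or WT 4 on KO 2 against WT females, so these fits hold no spread between KO libraries. Labels do not pair the replicate numbers, and deviations of same-numbered libraries correlated at -0.110 and 0.0328; with the number as a block, 748 genes were called, with 0 members higher and 2 lower. Members that turned sign had not passed. The log2 fold change was 0.012 for Ctsa, 0.016 for Ctsb, -0.0071 for Ctsl, -0.029 for Gla and -0.042 for Arsa with the replicate block, 0.0047 for Ctsb with no sex term, 0.0025 for Ctsb and 0.0030 for Man2b1 with the stricter filter, and -0.26 for Ctsl, -0.048 for Ids and -0.0083 for Cln3 with weights per genotype. Leaving out 1 library gave -0.045 to 0.0083 for Ctsb, -0.32 to 0.92 for Ctsc, -0.33 to 2.37 for Ctse, -1.23 to 1.12 for Ctsl, -2.16 to 0.18 for Ctsw, -0.15 to 0.33 for Gla, -0.13 to 0.21 for Glb1, -0.49 to 0.16 for Galc, -0.15 to 0.27 for Arsa, -1.33 to 0.048 for Smpd1, -0.078 to 0.37 for Npc2, -0.60 to 0.016 for Psap, -0.30 to 0.17 for Man2b1, -0.33 to 0.054 for Neu1, -0.21 to 0.74 for Scarb2, -0.61 to 0.73 for Ids and -0.14 to 0.19 for Cln3. The cause was not tested. Depth limits Ctss, Tfeb and Lgmn, which were under 2 CPM in WT.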
